A study of Homo sapiens with 4 samples.

Results

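The deoxynucleotide synthesis enzymes are 8 genes taken by name from the 20263 gene IDs of the count table: RRM1, RRM2, TYMS, TK1, DUT, DCK, DTYMK and CAD. The rule uses gene names alone, although earlier results of these data were known when the list was made. Each symbol matched 1 Ensembl ID, and all 8 passed the filter on low counts that left 14044 genes for testing. They were compared in HCT116, an established line from a human colorectal carcinoma that the labels give as wild type, grown with 32 µM HJ-4, a derivative of piperine, the pungent alkaloid of black pepper, or with 0.1% DMSO, the solvent, each for 24 h. The dose is that of the labels, and a legend of the study gives a lower one for the transcriptome. There were 2 libraries of each kind. The methods of the study speak of triplicates, and the labels do not tell whether the libraries of a group came from separate cultures, so the p-values rest on a spread between libraries that may be technical only.

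Cells copy their genome from the 4 deoxynucleoside triphosphates, which are scarce outside S phase. Ribonucleotide reductase supplies their precursors by reducing ribonucleoside diphosphates to deoxynucleoside diphosphates. Its large catalytic subunit is encoded by RRM1 and its small radical-bearing subunit by RRM2, and a second small subunit, RRM2B, is induced by p53 and serves cells that are not in S phase. Thymidylate has a route of its own. DUT hydrolyses dUTP to dUMP, which TYMS methylates to dTMP, and DTYMK phosphorylates dTMP to dTDP. TK1 and DCK are the cytosolic salvage kinases for thymidine and for deoxycytidine and purine deoxynucleosides. CAD carries the first steps of de novo pyrimidine synthesis. RRM2, TK1 and TYMS are textbook genes of the E2F program and of S phase.

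The DMSO libraries held 31120459 and 29769568 counts and the HJ-4 libraries 34359889 and 33762230. The mitochondrially encoded genes took 6.59% and 7.73% of them with DMSO and 6.01% and 6.41% with HJ-4. The groups did not overlap in either measure. Of 6 markers of colon epithelium, 5 were present, with a summed level of 3967 to 4461 CPM (counts scaled to library size) with DMSO and 4182 to 4373 with HJ-4, and VIL1 was at 0 to 0.127 CPM. The 5 leukocyte markers summed to at most 0.719 CPM and the 4 endothelial ones to 1.43 to 1.56 CPM with DMSO and 2.01 to 2.11 CPM with HJ-4. The 6 fibroblast markers summed to 59.0 to 63.1 CPM, nearly all of it COL1A1, with COL1A2, DCN and LUM at 0.

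Upstream stretches of RRM2, TK1, TYMS, DTYMK and RRM1 are shown first. RRM2 and TK1 are both classic CCAAT box genes. Whether any motif bears on the differences between the groups was not tested. Each window was read 5′ to 3′ from the RefSeq promoter table of GRCh38.p14, whose promoters run from 250 bases before to 50 bases after a start. Capitals mark the CCAAT box (CCAAT, or ATTGG on the other strand), the E2F core (TTTGGCG or its variants TTTCCCG or TTTGCCG or TTTCGCG, here CGGGAAA on the other strand) and the CHR element (TTTGAA or TTCGAA). Stretches that lie in an untranslated region of another transcript were kept to 30 bases. The stretches were set by hand and do not hold every motif of a promoter. That of DTYMK leaves out its 2 CCAAT boxes, and DUT, DCK and CAD are not shown. The RRM2 window is chr2:10122621-10122738 on the plus strand, and the TK1 windows are chr17:78187115-78187139 and chr17:78187084-78187108 on the minus strand. That of TYMS is chr18:657593-657652 on the plus strand, that of DTYMK chr2:241686873-241686902 on the minus strand, and that of RRM1 chr11:4094625-4094684 on the plus strand.
RRM2: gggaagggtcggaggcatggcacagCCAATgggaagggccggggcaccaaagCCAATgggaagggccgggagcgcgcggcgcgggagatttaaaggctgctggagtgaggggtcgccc
TK1, first site: ccgggcgctgATTGGccccatggcg
TK1, second site: ccggctcgtgATTGGccagcacgcc
TYMS: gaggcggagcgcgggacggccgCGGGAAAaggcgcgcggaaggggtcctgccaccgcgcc
DTYMK: cccTTCGAAtttggccgaggcCGGGAAAta
RRM1: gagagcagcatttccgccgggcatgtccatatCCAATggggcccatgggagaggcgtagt

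Over its whole promoter window, RRM2 held 3 CCAAT boxes, the first of them just upstream of the stretch printed. TK1 held 2, DTYMK 2, and RRM1 and CAD 1 each, while TYMS, DUT and DCK held none. RefSeq lists 2 starts each for RRM2 and TK1 and 4 for DUT. Only the start nearest the canonical GENCODE start was searched for each member. A CCAAT box was present in 34.6% of the 35116 promoters of the table. The E2F core was found once each in TYMS, DTYMK and DCK and in 8.67% of all promoters. The CHR element was found in RRM1 and DTYMK and in 16.4% of promoters, and the GC box, GGGCGG, in RRM1, TK1, DUT, DCK, DTYMK and CAD and in 45% of promoters. Both strands were searched, no motif overlapped a different one, and the CHR letters of DTYMK read alike on both strands. These are matches of letters, not measured binding sites.

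TK1 and RRM2 had the lowest levels relative to DMSO in HJ-4-treated cells, CAD and RRM1 had nearly the same mean in both groups, and the other members lay between. By edgeR's quasi-likelihood test with Benjamini-Hochberg adjustment over all genes, 0 of the 8 members passed an adjusted p of 0.05, where 0.00712% of all genes passed as lower and 0.0427% as higher. At an unadjusted p under 0.05, TK1, RRM2 and TYMS were lower and none was higher, 3 of 8 beside 7.93% of all genes lower and 7.93% higher. DESeq2's Wald test called TK1 and RRM2 lower and no member higher, where it called 1.84% of genes lower and 2.46% higher. Counted by sign, 6 members had a negative and 2 a positive log2 ratio of HJ-4 to DMSO, the fitted log2 fold change. Its median was -0.18 over the members and 0.00 over all genes tested. Both HJ-4 libraries lay below both DMSO libraries for 5 members, beside 25.6% of all genes, and above them for 1, beside 25.2%. As these are bulk samples, fewer cells in S phase and less RNA per cell cannot be told apart.

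**Figure D1:**
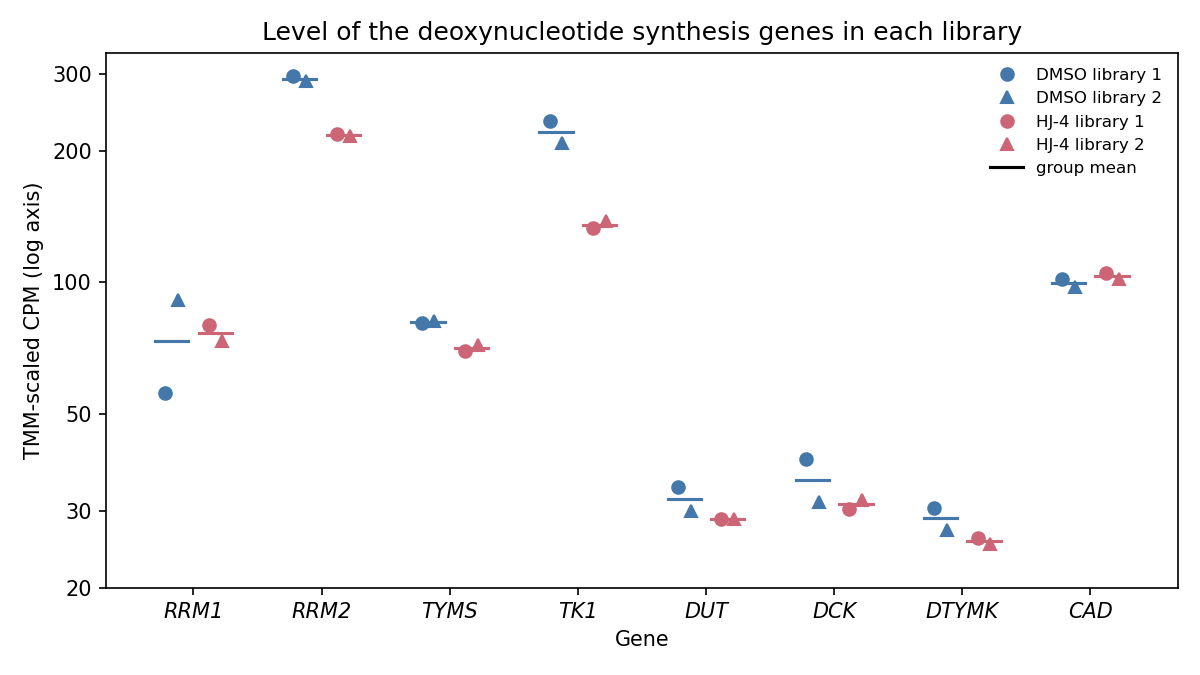
TMM-scaled CPM (log axis) of the 8 genes in each library, with circles for library 1, triangles for library 2 and horizontal lines for group means. TK1 lies at 208 and 234 with DMSO and at 133 and 138 with HJ-4, whereas the DMSO libraries of RRM1 lie on both sides of its HJ-4 libraries.

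Of the ribonucleotide reductase members, the small subunit gene RRM2 lay apart between the groups and the large subunit gene RRM1 did not. RRM2 was at 296 and 289 CPM with DMSO and at 218 and 216 CPM with HJ-4. The libraries of a group were nearly level, and the groups did not overlap. The log2 ratio was -0.43 (standard error, SE, 0.07, edgeR adjusted p = 0.14, DESeq2 adjusted p = 9.11e-05), so that the HJ-4 level was 0.743 of the DMSO level. RRM1, the gene of the large subunit, was at 55.8 and 91.3 CPM with DMSO and at 79.9 and 73.3 CPM with HJ-4. The DMSO libraries enclosed the HJ-4 libraries, and DMSO library 2 exceeded DMSO library 1 by 0.71 on the log2 scale, with 2749 counts against 1752. The log2 ratio of RRM1 was 0.06 (SE 0.24, edgeR adjusted p = 0.92). It was 0.46 without DMSO library 2 and -0.25 without DMSO library 1, so its direction depended on which control library was used.

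Among the thymidylate genes, TYMS, the gene of thymidylate synthase, showed a small difference with tight libraries. It was at 80.8 and 81.7 CPM with DMSO and at 69.7 and 71.8 CPM with HJ-4. The groups did not overlap, and the libraries within each group lay close together. The groups differed by a log2 ratio of -0.20 (SE 0.08, edgeR adjusted p = 0.31). In DESeq2 its unadjusted p was 0.056. TYMS overlaps ENOSF1 and TYMSOS on the opposite strand in GENCODE v44, and ENOSF1 held 734 to 865 counts in each library against 2374 to 2537 for TYMS. The strand setting of the counting (not given in the sources used here) decides whether reads of the overlap can be told apart. The same holds for other members with genes on the opposite strand. RRM1 overlaps RRM1-AS1, DUT overlaps DUT-AS1, and RRM2 overlaps MIR4261 and an unnamed gene.

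DUT, the dUTPase gene, was at 33.9 and 29.9 CPM with DMSO and at 28.7 CPM in both HJ-4 libraries. Both HJ-4 libraries lay below both DMSO libraries, but the distance to DMSO library 2 was smaller than that between the DMSO libraries. DUT had a log2 ratio of -0.15 (SE 0.11, edgeR adjusted p = 0.52), which was -0.059 without DMSO library 1 and -0.24 without DMSO library 2. DTYMK, the thymidylate kinase gene, was at 30.5 and 27.1 CPM with DMSO and at 26.0 and 25.1 CPM with HJ-4. Here too the groups did not overlap, with the nearest libraries about 1 CPM apart. The log2 ratio of DTYMK was -0.17 (SE 0.11, edgeR adjusted p = 0.47), and DMSO library 2 lay below DMSO library 1 by 0.17 on the log2 scale. The ratio of DTYMK was -0.085 without DMSO library 1 and -0.26 without DMSO library 2.

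Of the salvage kinase genes, TK1 had the largest difference of the 8 members. TK1, which serves thymidine salvage in S phase, was at 234 and 208 CPM with DMSO and at 133 and 138 CPM with HJ-4. Both HJ-4 libraries lay far below the DMSO libraries, and the gap between the groups exceeded the distance between libraries within either. HJ-4 against DMSO gave a log2 ratio of -0.70 (SE 0.09, edgeR adjusted p = 0.10, DESeq2 adjusted p = 2.76e-07), so that the HJ-4 level was 0.614 of the DMSO level. DCK, the deoxycytidine kinase gene, was at 39.3 and 31.4 CPM with DMSO and at 30.2 and 31.8 CPM with HJ-4. HJ-4 library 2 lay above DMSO library 2, so the groups overlapped, and the log2 ratio was -0.19 (SE 0.14, edgeR adjusted p = 0.54). Without DMSO library 1, which held the highest DCK level, it was -0.017, and without DMSO library 2 it was -0.34. DCK overlaps MOB1B on the same strand in GENCODE v44.

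CAD, the gene of the enzyme that carries carbamoyl phosphate synthetase, aspartate transcarbamylase and dihydroorotase, was at 102 and 97.5 CPM with DMSO and at 105 and 102 CPM with HJ-4. HJ-4 library 2 and DMSO library 1 gave the same value to 3 digits. The log2 ratio was 0.06 (SE 0.08, edgeR adjusted p = 0.76), and it lay between 0.02 and 0.09 when each library was left out in turn.

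**Figure D2:**
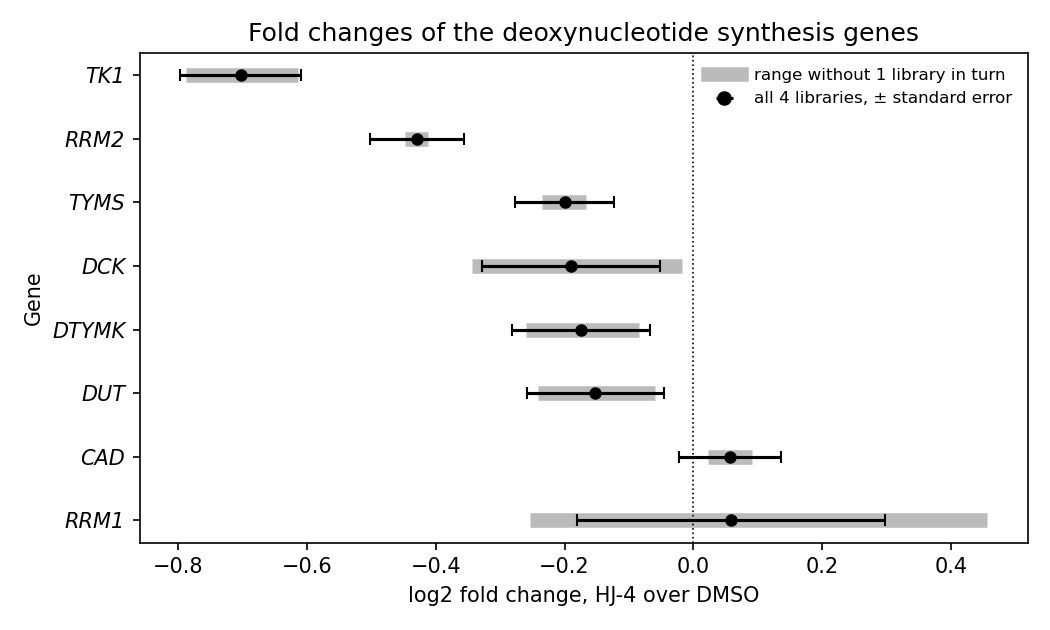
Log2 fold change (HJ-4 over DMSO) of each of the 8 genes, with black points and bars for the value and standard error from all 4 libraries and grey bars for the range when each library was left out in turn. The range of TK1 runs from -0.79 to -0.61 and that of RRM2 from -0.45 to -0.41, whereas that of RRM1 spans 0, from -0.25 to 0.46.

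Levels of different genes were compared per kilobase of the canonical GENCODE transcript, which may not be the length the authors counted over. With DMSO, TK1 was the most abundant member at 154 ± 13.1 CPM per kilobase (SD, n = 2), followed by RRM2 at 89.7 ± 1.5 and TYMS at 50.4 ± 0.398. Each of these lay apart from the next in both groups. DTYMK at 27.4 ± 2.33 and RRM1 at 23.4 ± 8.0 CPM per kilobase overlapped with each other. DUT at 14.9 ± 1.31, DCK at 14.1 ± 2.24 and CAD at 13.7 ± 0.454 CPM per kilobase came last, and neighbours in this order did not differ beyond their spread. With HJ-4, TK1 was at 94.9 ± 2.59, RRM2 at 66.6 ± 0.333 and TYMS at 43.9 ± 0.915 CPM per kilobase (SD, n = 2). The order of these 3 genes was the same in both groups, and the distances between them were smaller with HJ-4. RRM1 at 24.4 ± 1.47 and DTYMK at 24.3 ± 0.603 CPM per kilobase overlapped here too, and CAD at 14.3 ± 0.272, DUT at 13.4 ± 0.0295 and DCK at 12.4 ± 0.44 followed. The genes lie on chromosome 11 (RRM1, 4094707 to 4138932), chromosome 2 (RRM2, 10120698 to 10211725, DTYMK, 241675747 to 241686944, and CAD, 27217369 to 27243943), chromosome 18 (TYMS, 657653 to 673578), chromosome 17 (TK1, 78174091 to 78187233), chromosome 15 (DUT, 48331011 to 48343373) and chromosome 4 (DCK, 70992538 to 71030914) of GRCh38.

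The isoenzymes of RRM2 and TK1 that act outside S phase had positive fold changes. RRM2B was at 98.7 and 111 CPM with DMSO and at 146 and 132 CPM with HJ-4, a log2 ratio of 0.40 (SE 0.10, edgeR adjusted p = 0.22). TK2, the mitochondrial thymidine kinase gene, was at 14.4 and 16.3 CPM with DMSO and at 21.5 and 23.3 CPM with HJ-4, a log2 ratio of 0.54 (SE 0.12, edgeR adjusted p = 0.18). For both genes the groups did not overlap, and DESeq2 called both higher, TK2 at an adjusted p of 0.044 and RRM2B just under 0.05. An unnamed protein-coding gene overlaps TK2 on the same strand in GENCODE v44.

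Per kilobase, the ratio of RRM2B to RRM2 was 0.228 and 0.262 with DMSO and 0.456 and 0.416 with HJ-4. The ratio of TK2 to TK1 was 0.0182 and 0.0233 with DMSO and 0.0479 and 0.0499 with HJ-4. In both pairs the HJ-4 libraries lay above the DMSO libraries, while the S-phase gene was still the more abundant one in every library. The ratio of RRM1 to RRM2 was 0.196 and 0.328 with DMSO and 0.381 and 0.352 with HJ-4, with the DMSO libraries farther apart than the HJ-4 libraries. Each ratio had a p of 0.333 in an exact two-sided permutation test, which is the smallest that 2 libraries against 2 can give. These pairs were chosen after the values were seen.

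**Figure D3:**
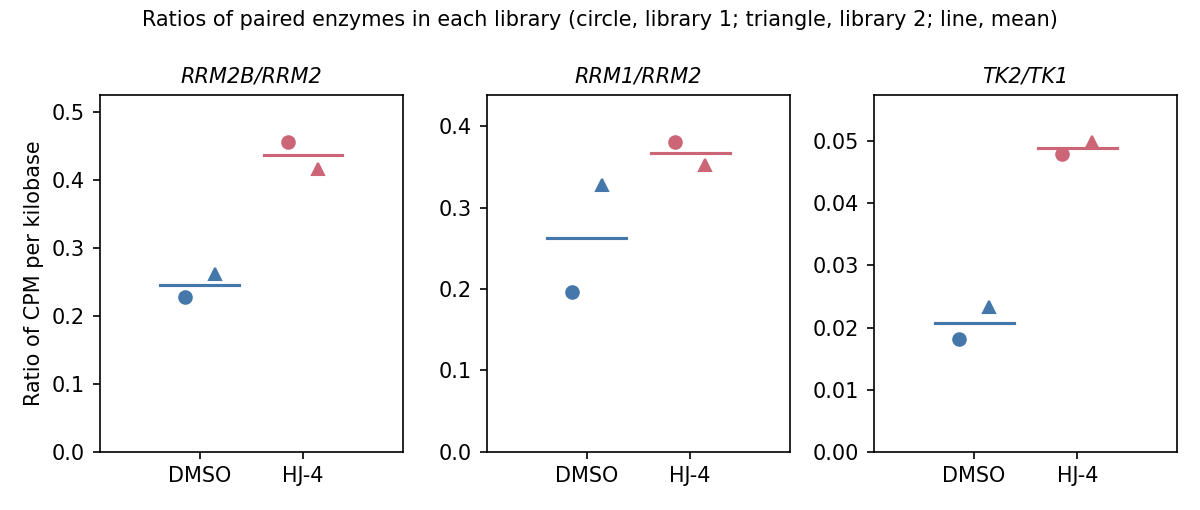
Ratio of CPM per kilobase of 3 gene pairs in each library (circles, library 1, triangles, library 2, lines, group means), on axes that start at 0. The RRM2B to RRM2 ratio lies at 0.228 and 0.262 with DMSO and at 0.456 and 0.416 with HJ-4, while the DMSO libraries of RRM1 to RRM2 lie at 0.196 and 0.328.

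SHMT1, a cytosolic source of one-carbon units for thymidylate, was at 36.9 and 36.4 CPM with DMSO and at 28.7 and 31.7 CPM with HJ-4, a log2 ratio of -0.28 (edgeR adjusted p = 0.30), and it overlaps SMCR8 on the opposite strand.

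The rest of nucleotide metabolism was described with 59 listed genes, all of which were in the table and tested. By edgeR 0 of the 59 passed an adjusted p of 0.05. At an unadjusted p under 0.05, 6 were lower and 9 higher, beside 7.93% of all genes in each direction. DESeq2 called 2 lower, PAICS among them, beside 1.84% of all genes, and 5 higher, RRM2B, TK2, PRPS2, PNP and NT5E, beside 2.46%. The lists that follow hold at most 16 genes, so the share called in any of them rests on very few genes. The median log2 ratio of the 59 genes was 0.06, with 24 negative and 35 positive, beside 6922 negative and 7122 positive among all genes tested.

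Among 16 genes of purine synthesis and salvage, 13 had a positive log2 ratio, with a median of 0.10, and at an unadjusted p under 0.05 there were 2 lower and 3 higher, beside 7.93% of all genes each way. PAICS, an enzyme in the middle of de novo purine synthesis, had the largest difference in the opposite direction. It was at 233 and 264 CPM with DMSO and at 125 and 112 CPM with HJ-4, a log2 ratio of -1.07 (SE 0.11, edgeR adjusted p = 0.079, DESeq2 adjusted p = 5.08e-13). PAICS passed in edgeR without DMSO library 1 (adjusted p = 0.039, log2 ratio -1.16). PRPS2, which makes the phosphoribosyl pyrophosphate on which nucleotides are built, was at 28.4 and 26.8 CPM with DMSO and at 46.8 and 46.0 CPM with HJ-4, a log2 ratio of 0.75 (SE 0.09, edgeR adjusted p = 0.10, DESeq2 adjusted p = 6.16e-07). The purine genes GART and ADSS2 had log2 ratios of 0.34 and 0.30 (edgeR adjusted p = 0.22 and 0.28), and GART overlaps SON on the opposite strand. Genes of the same pathway thus lay on opposite sides of 0.

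Of 16 genes of dNTP and nucleoside breakdown, 10 had a positive log2 ratio, with a median of 0.07, and at an unadjusted p under 0.05 there were 1 lower and 3 higher, beside the same 7.93%. PNP, the purine nucleoside phosphorylase gene, was at 111 and 113 CPM with DMSO and at 173 and 163 CPM with HJ-4, a log2 ratio of 0.59 (edgeR adjusted p = 0.11, DESeq2 adjusted p = 9.43e-07). NT5E, which encodes the surface nucleotidase CD73, was at 194 and 258 CPM with DMSO and at 366 and 364 CPM with HJ-4 (log2 ratio 0.69, edgeR adjusted p = 0.18). The uridine phosphorylase gene UPP1 had a log2 ratio of 0.47 and the pyrimidine catabolic gene DPYD, at 4.41 to 8.24 CPM, of -0.58 (edgeR adjusted p = 0.24 and 0.31). DPYD was at -0.29 without DMSO library 2. SAMHD1, the dNTP triphosphohydrolase that lowers dNTP pools outside S phase, was at 31.7 and 29.7 CPM with DMSO and at 29.6 and 28.9 CPM with HJ-4, a log2 ratio of -0.07 (SE 0.10, edgeR adjusted p = 0.74). SAMHD1 overlaps TLDC2 on the opposite strand.

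Of 8 other genes of pyrimidine synthesis and salvage, 6 were negative, with a median of -0.10. At an unadjusted p under 0.05 there were 1 lower and 1 higher, the latter CTPS2, beside 7.93% of all genes each way. The CTP synthase gene CTPS2 had a log2 ratio of 0.46 (edgeR adjusted p = 0.21) and its paralog CTPS1 of -0.12 (edgeR adjusted p = 0.66), which was -0.015 without HJ-4 library 2. The uridine-cytidine kinase gene UCK1 was at -0.23 (edgeR adjusted p = 0.40) and overlaps POMT1 on the opposite strand. None of 10 nucleotide kinase genes passed an unadjusted p of 0.05, beside the same 7.93% each way, and the median of the 10 was -0.01. Among them, GUK1 had a log2 ratio of -0.19, NME4 of 0.20, NME1 of 0.12 and AK1 of 0.16. With each library left out in turn these ran from -0.30 to -0.068, from 0.098 to 0.31, from 0.054 to 0.19 and from 0.046 to 0.27. NME1 shares its locus with the read-through gene NME1-NME2, which the table counts separately, and is therefore uncertain, and NME4 and AK1 each overlap another protein-coding gene on the same strand. The nucleoside transporter genes SLC29A1, SLC29A2 and SLC29A3 were at 0.15, 0.05 and -0.11, all with an unadjusted p over 0.05 in edgeR.

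**Figure D4:**
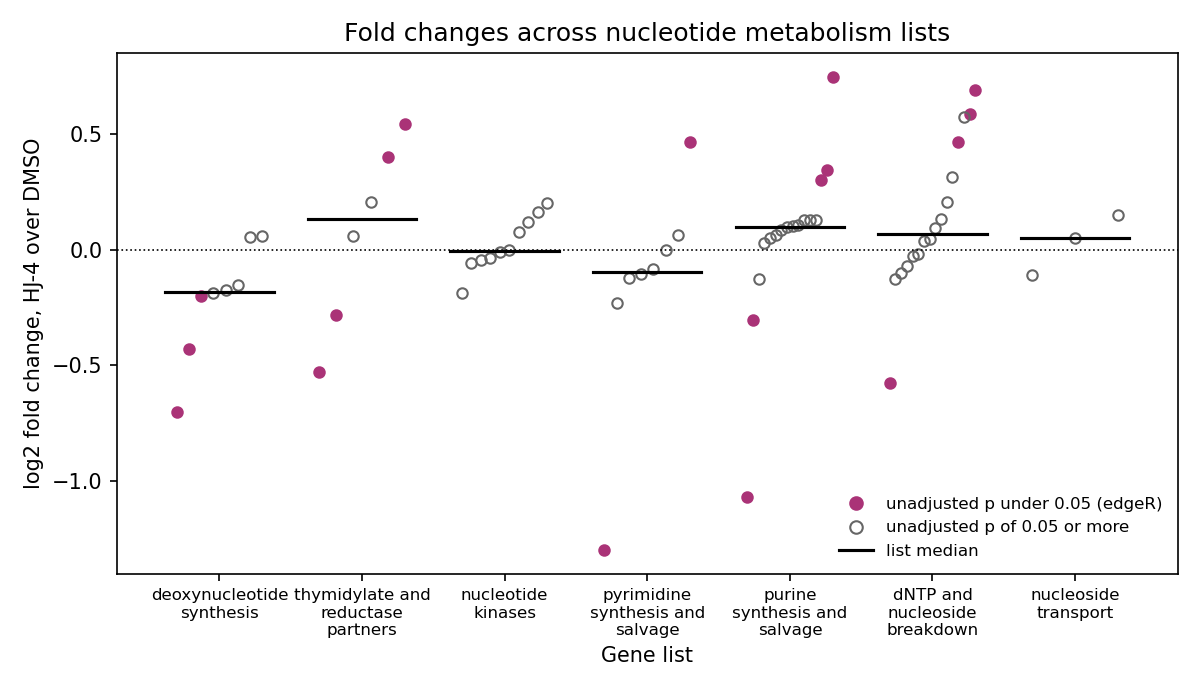
Log2 fold change (HJ-4 over DMSO) of the 8 deoxynucleotide synthesis genes and the 59 other nucleotide metabolism genes by list, with filled points for an unadjusted p under 0.05 in edgeR and horizontal lines for list medians. The median lies at -0.18 for the 8 genes and at 0.10 for purine synthesis and salvage, whose lowest point is PAICS at -1.07.

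The genes whose profile over the 4 libraries was nearest to the mean profile of the 8 enzymes were CFAP298, NDUFA2, MRTFA, SP4 and CAMK2G. Nearness was the Euclidean distance between log2 CPM values centred on each gene's mean, over the 11174 genes that averaged 5 CPM or more, and was 0.0097 for CFAP298 and 0.021 for CAMK2G. The mean profile of the members stood at 0.12 and 0.09 in the DMSO libraries and at -0.10 and -0.11 in the HJ-4 libraries. It averages unlike members, with log2 ratios from -0.70 for TK1 to 0.06 for RRM1, so these genes need not follow each member. CFAP298, for example, was at 39.8 and 39.2 CPM with DMSO and at 34.0 CPM in both HJ-4 libraries. This nearness is a description over 4 libraries, and no test was made of it.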

How the data were processed

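RNA sequencing counts from 2 DMSO and 2 HJ-4 libraries of HCT116 cells were analysed. The values the authors deposited are counts of reads for each Ensembl gene ID, whole and not normalized. The study's methods name STAR, GRCh38 and featureCounts, and RSEM, HISAT2, bedtools, Trimmomatic and FastQC are listed by the submitters' processing notes. Which of these made the table was not given in the sources used here, nor was the strand setting. Reads of overlapping or near-identical genes may thus be split, shared or dropped.

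Columns were matched by library name. Symbols, coordinates, overlaps and transcript lengths came from GENCODE version 44 on GRCh38, which matched 20148 of 20263 IDs. The 115 others held at most 0.053% of a library. Genes kept by filterByExpr (14044) were scaled by TMM (factors 0.988 to 1.01) and tested across all genes with glmQLFit and glmQLFTest in edgeR 4.0.16 (R 4.3.3), on a treatment term alone, with p-values adjusted by Benjamini-Hochberg. The biological coefficient of variation common to all genes was 0.157. The study names limma, and edgeR was used because the values are counts. Levels are TMM-scaled CPM, and standard errors were derived from the F statistic. The distance between profiles used log2 CPM with a prior count of 2. The test was checked on simulated counts with planted changes, all of them larger than the difference of any member. The check therefore does not tell how often differences of the members' size would be found. Alternatives were DESeq2 1.42.0, limma-voom (limma 3.58.1), 2 other scalings, 2 other filters, a replicate block, a fold threshold of 1.2 on the log2 scale and leaving out each library.

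The members and lists were chosen with earlier results of these data known. Named genes are the 8 members, up to 4 genes of smallest p in each list, RRM2B and SAMHD1, and the 5 nearest profiles. Some genes named by this rule are not reported here. Promoter windows came from RefSeq (GRCh38.p14), and all 8 members matched. The start used lies 114 bases from the canonical GENCODE start for RRM1 and at that start for the others.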

Additional observations from a re-analysis of the deposited data

How the results depend on the processing

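Of the 12 alternatives, the fold threshold bears on calls alone. Under the others the negative sign of RRM2, TK1, TYMS, DUT, DCK and DTYMK and the positive sign of CAD were kept. RRM1 was at -0.25 without DMSO replicate 1 and ran up to 0.46 without DMSO replicate 2. The number of members called was 0 in every alternative but DESeq2's Wald test, which called 2, and that of the 59 pathway genes was 7 with DESeq2 and 1 without DMSO replicate 1. Leaving out 1 library gave 0 to 1 pathway genes called, and 8 to 15 at an unadjusted p under 0.05, with 8 without either HJ-4 replicate in place of 15. The number of members lower at an unadjusted p under 0.05 was 2 or 3 under these others. The median of the members ran from -0.25 without DMSO replicate 2 to -0.15 without DMSO replicate 1. Of the transporter genes, SLC29A3 ran from -0.25 to 0.038, the latter without DMSO replicate 1, and SLC29A2 ran from -0.039 without HJ-4 replicate 1 through -0.0063 without DMSO replicate 2 to 0.14 without HJ-4 replicate 2. Why these values moved was not tested. A replicate block gave 0 members called, 2 lower at an unadjusted p under 0.05 and a median of -0.18. The labels do not tell whether libraries of the same number were handled together. The deviations of libraries numbered 1 from their group means correlated at -0.071 across genes, which cannot settle this with so few libraries. With 2 libraries a group, adjusted p-values of TK1 ran from 0.059 to 0.51 when a library was left out, in fits where a lone library is assumed to vary like the others. The members had 815 to 9280 counts per library, and whether depth limits the calls was not tested.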
